A study of Mus musculus with 4 samples.

Results

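Collagens are the proteins of which most of the extracellular matrix is built, and their genes were followed here in embryonic mouse kidneys of control and Sall1 knockout samples. The genes were found by their symbol, which has the form Col, number, a, number, through the RefSeq accession of each array probe. Of 44 such symbols known to RefSeq, 42 had a probe, with 61 probes among the 55681 of the array, and 34 of the 42 genes were bright enough to be tested among 25073 genes and unnamed sequences. Col12a1 and Col6a3 had no matched probe and were not analysed here. The 34 genes comprised 11 of the fibrillar class, 5 of the type IV chains of basement membranes and 18 of other classes.

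The kidneys came from mouse embryos at E13.5 (embryonic day), on a mixed 129 and C57BL/6 background, 24 hours after tamoxifen at E12.5. Tamoxifen activates CreER, a form of Cre recombinase fused to an oestrogen receptor domain, which deletes a gene flanked by loxP sites. Total RNA of 2 control and 2 Sall1 knockout samples was hybridised to 4 one-colour Agilent arrays. The control titles name flox and the knockout titles name CreER, so CreER and the loss of Sall1, a zinc finger transcription factor, cannot be told apart. The labels give tamoxifen for both groups and name the line Sall1CreER, but not what drives CreER, whether a sample was 1 embryo or a pool, or which litter it came from, and every p-value here rests on the spread of these samples alone, which may be technical.

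All values below are log2 signals relative to the 75th percentile of the same array, so 0 means a signal equal to that percentile. They are comparable between arrays for 1 gene but not between genes. Of the spots that were not controls, 60.6% to 64.2% per array were well above background, and all 4 arrays lay on 1 slide scanned on 1 day. Each of 10 kidney markers was among the genes tested, with a median difference of -0.18. Their summed linear signals were 120 and 118 in control against 106 and 110 in knockout kidneys. Of the 10, 6 were lower and 2 higher on both knockout arrays, beside 27.7% and 21.5% of all genes tested. Osr1 (-0.86 ± 0.064, SE) and Six2 (-0.51 ± 0.090) differed most. The Sall1 probe read 1.79 and 1.81 in control kidneys against 1.03 and 1.07 in knockout kidneys, a difference of -0.75 ± 0.056 (SE, n = 2 per group; adjusted p = 0.126 in limma), or 0.595 of the control signal, so signal remained in the knockout samples. In limma, a linear model fitted to all genes with a shared estimate of the variance, 0 of 25073 genes and sequences (0%) passed an adjusted p of 0.05, and an unadjusted p under 0.05 was reached by 6.77% higher and 5.94% lower. With a variance prior that follows the signal, Sall1 passed (adjusted p = 0.00143 in limma), beside 0.542% of all genes called higher and 0.654% lower. An exact permutation test of 2 arrays against 2 cannot give a p below 0.333.

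A collagen molecule is 3 chains wound into a triple helix, and each chain repeats a glycine at regular steps. The fibrillar types, secreted mainly by mesenchymal cells, line up into the banded fibrils of connective tissue. Type IV chains instead join into the sheet-like network of basement membranes, which in the fetal kidney lie under the ureteric bud, the nephron epithelia and the vessels. The remaining classes sit on fibrils, form beaded filaments, span the cell membrane or carry large sugar chains. In bulk tissue such as this, fewer cells of a type and less RNA per cell cannot be told apart.

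The sequences before the annotated start of 4 members are shown because these genes stand for the groups the results compare. Col1a2 and Col3a1 are interstitial fibrillar genes, Col6a1 is a beaded filament gene, and Col4a6 is the type IV gene with the lowest difference. The bases are those of RefSeq on GRCm38.p6, 5′ to 3′ on the strand of the gene, without any base inside an annotated gene. Capitals mark the motif TATAAA, the motif CCAAT and the motif GGGCGG, searched on both strands, which do not overlap one another here.
Col1a2 (chr6:4505368-4505617, plus strand): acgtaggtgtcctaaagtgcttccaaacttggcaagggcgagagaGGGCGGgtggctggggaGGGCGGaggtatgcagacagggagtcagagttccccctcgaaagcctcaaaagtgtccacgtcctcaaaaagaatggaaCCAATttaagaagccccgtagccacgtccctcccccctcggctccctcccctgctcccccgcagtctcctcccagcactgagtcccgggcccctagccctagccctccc
Col3a1 (chr1:45311288-45311537, plus strand): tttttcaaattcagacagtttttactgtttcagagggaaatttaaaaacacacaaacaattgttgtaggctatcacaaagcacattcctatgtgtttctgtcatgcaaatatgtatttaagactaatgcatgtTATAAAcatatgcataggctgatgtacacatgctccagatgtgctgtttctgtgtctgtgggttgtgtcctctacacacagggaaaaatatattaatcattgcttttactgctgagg
Col6a1 (chr10:76726045-76726294, minus strand): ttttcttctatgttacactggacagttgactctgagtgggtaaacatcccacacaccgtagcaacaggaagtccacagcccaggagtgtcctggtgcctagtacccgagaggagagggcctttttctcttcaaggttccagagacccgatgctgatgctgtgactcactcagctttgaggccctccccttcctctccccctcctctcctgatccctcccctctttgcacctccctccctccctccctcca
Col4a6 (chrX:141474096-141474326, minus strand): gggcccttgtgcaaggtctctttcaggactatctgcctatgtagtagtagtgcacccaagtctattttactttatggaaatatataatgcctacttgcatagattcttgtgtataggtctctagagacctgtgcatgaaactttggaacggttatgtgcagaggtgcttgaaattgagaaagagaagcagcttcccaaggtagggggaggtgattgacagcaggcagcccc

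The 4 windows had little in common in these letters. GGGCGG was found 2 times before Col1a2, which also held CCAAT beginning 109 bases before the start, while Col3a1 held TATAAA beginning 117 bases before it. The windows of Col6a1 and Col4a6 held none of the 3 motifs, which says nothing about the factors that bind there. Of 32851 promoter windows of 250 bases, 12.4% held TATAAA, 33.9% CCAAT and 32.7% GGGCGG. The share of G and C was 62.0% for Col1a2, 35.2% for Col3a1, 56.0% for Col6a1 and 45.5% for Col4a6, beside a median of 52.4% over windows of 250 bases. Col4a6 is shown by 231 bases, because RefSeq gene models reach into the 19 bases next to the start.

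Fibrillar collagen genes and those of the other classes were mostly higher in the knockout kidneys, and type IV genes were not. No collagen gene passed over all genes tested. The median log2 difference, knockout minus control, was 0.29 over the 11 fibrillar genes, -0.039 over the 5 type IV genes and 0.27 over the 18 others, beside -0.013 over all genes tested. The groups did not overlap for 21 collagen genes with higher and 2 with lower knockout values. Of all genes tested, 21.5% lay apart in the higher and 27.7% in the lower direction and 49.2% in either. By class, 6 of 11 fibrillar, 2 of 5 type IV and 13 of 18 other genes lay apart in the higher direction. An unadjusted p under 0.05 in limma was reached by 6 of the 34 collagen genes, beside 6.77% of all genes higher and 5.94% lower. These were Col2a1, Col18a1, Col22a1, Col14a1, Col13a1 and Col3a1, all higher. After adjustment 0 passed at 0.05 or at 0.1, where 0.0838% of all genes passed the latter, and the smallest adjusted p in limma was 0.222, for Col2a1. With a variance prior that follows the signal, 2 passed in limma, Col2a1 (adjusted p = 0.0139) and Col18a1 (adjusted p = 0.0345), both higher, beside 0.542% of all genes called higher and 0.654% lower. These counts describe genes that passed the filter on dim probes: 33 were above background on all 4 arrays and Col9a3 on both control arrays and 1 knockout array.

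**Figure D1:**
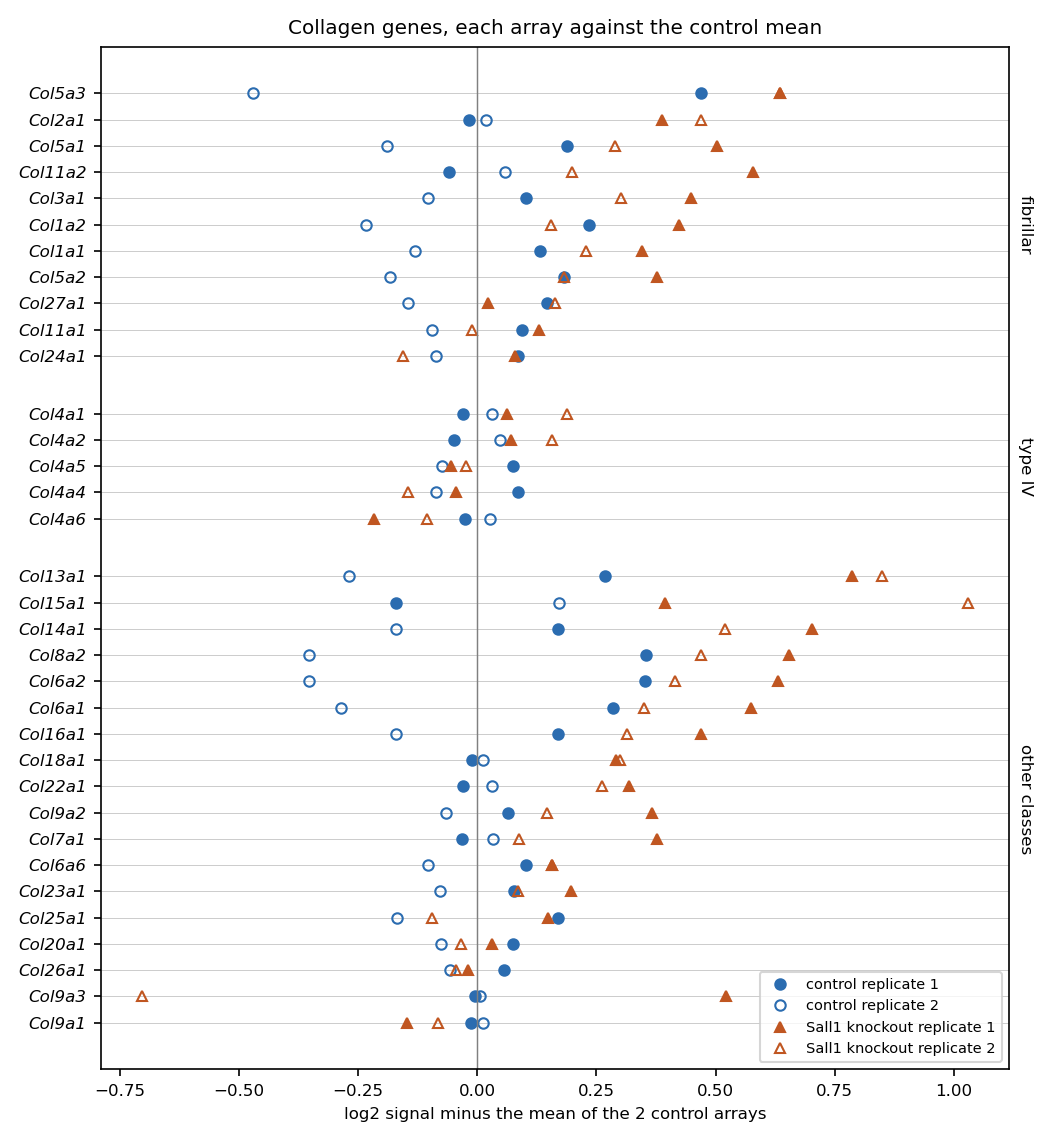
Log2 signal of each of the 34 collagen genes on each array, minus the mean of the 2 control arrays (circles, control; triangles, knockout; open symbols, second replicates), by class. Control replicate 2 is the lowest array for 8 of 11 fibrillar genes and for 1 of 5 type IV genes.

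Col1a1 and Col1a2 encode the chains of type I collagen, the main protein of connective tissue fibrils. Col1a1 read 5.46 and 5.20 in control kidneys against 5.68 and 5.56 in knockout kidneys. Both knockout values lay above both control values, with a difference of 0.29 ± 0.12 (SE) and a 95% interval from -0.045 to 0.62. Col1a2 read 6.10 and 5.63 in control kidneys against 6.29 and 6.02 in knockout kidneys. Here the groups overlapped, since control replicate 1 was above knockout replicate 2, and the difference of 0.29 ± 0.20 (SE) was smaller than the gap of 0.47 between the control arrays. The adjusted p in limma was 0.432 for Col1a1 and 0.575 for Col1a2.

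Col3a1, whose homotrimers mix with type I collagen in the fibrils of soft tissues, read 4.69 and 4.48 in control kidneys against 5.03 and 4.89 in knockout kidneys. It was higher on both knockout arrays, by 0.38 ± 0.11 (SE; adjusted p = 0.351 in limma), and 1.30-fold higher on average. Col5a2, a type V chain that sets the width of type I fibrils and is the next protein-coding gene after Col3a1 on the chromosome, read 0.88 and 0.52 in control kidneys against 1.08 and 0.88 in knockout kidneys. The second knockout array did not exceed the first control array, and the difference was 0.28 ± 0.16 (SE).

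Col5a1, the chain that pairs with Col5a2, read 2.44 and 2.06 in control kidneys against 2.76 and 2.54 in knockout kidneys, a difference of 0.40 ± 0.17 (SE) with no overlap. For Col5a3, a less widespread type V chain, the values were -1.84 and -2.78 in control kidneys against -1.67 and -1.67 in knockout kidneys. Its knockout arrays were alike and the control arrays 0.94 apart, so that the difference of 0.63 ± 0.35 (SE), 1.55-fold, rests on control replicate 2. Without that array the difference of Col5a3 was 0.17. With normexp correction, another way to remove background from the signals, its difference was 0.39. That setting used median spot signals and added an offset of 50, which by itself shrinks the differences of dim genes. The parts of the offset and of the background method were not separated.

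Col2a1 encodes the main collagen of cartilage fibrils and had the smallest p of all collagen genes. It read 2.70 and 2.73 in control kidneys against 3.101 and 3.183 in knockout kidneys. The control arrays differed by 0.035 and the knockout arrays by 0.082, and the difference between the groups was 0.43 ± 0.063 (SE; 95% interval from 0.25 to 0.61), 1.35-fold. Col11a2, a type XI chain that joins type II collagen in cartilage fibrils, was higher by 0.39 ± 0.15 (SE), from -2.90 and -2.78 to -2.26 and -2.64, and by 0.24 with normexp correction. Col11a1, another type XI chain, also made outside cartilage, read -0.55 and -0.74 in control kidneys against -0.52 and -0.66 in knockout kidneys, with overlap and a difference of 0.060 ± 0.10 (SE). Of 10 cartilage markers, 3 were tested, Acan, Hapln1 and Matn4, with differences of -0.14, 0.045 and -0.019. Their summed linear signal was 1.39 and 1.42 in control kidneys against 1.48 and 1.37 in knockout kidneys, and Matn3, Cnmd, Snorc and Ucma were above background on no array.

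The 2 fibrillar genes with interrupted helices, Col24a1 and Col27a1, differed least among this class together with Col11a1. Col27a1 read -0.51 and -0.80 in control kidneys against -0.63 and -0.49 in knockout kidneys, a difference of 0.093 ± 0.13 (SE). Col24a1 read -1.77 and -1.94 against -1.78 and -2.01, a difference of -0.038 ± 0.12 (SE). In both genes the groups overlapped, and intervals from -0.27 to 0.46 and from -0.38 to 0.30 leave differences of the size seen in the type I chains within reach.

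**Figure D2:**
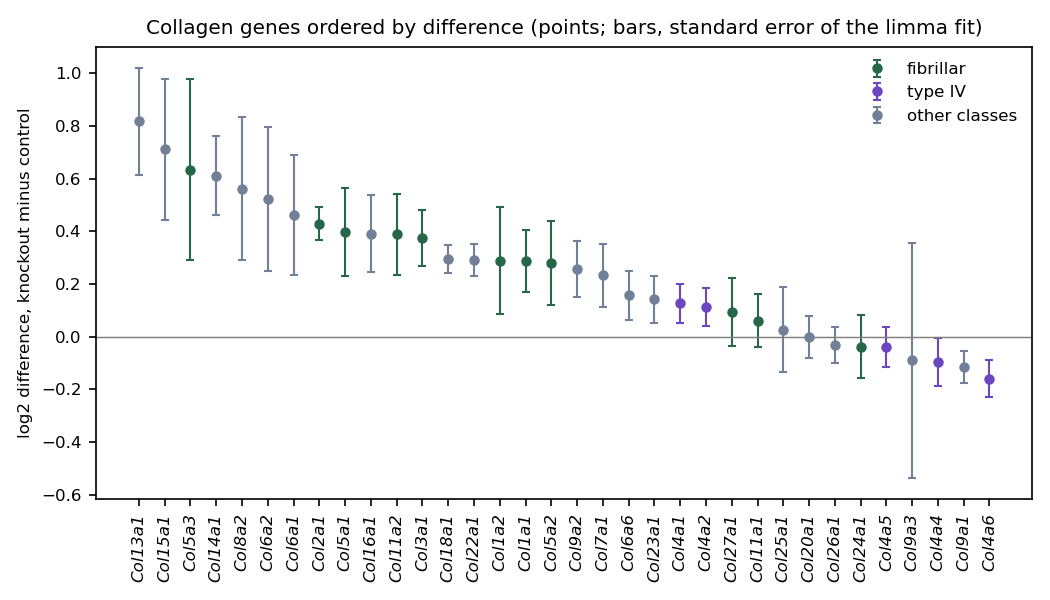
Log2 difference, knockout minus control, of the 34 collagen genes (points) with its standard error in limma (bars), ordered by size and coloured by class. The fibrillar genes run from 0.63 for Col5a3 to -0.038 for Col24a1, and the type IV genes from 0.13 for Col4a1 to -0.16 for Col4a6.

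Type IV collagen is made in pairs of genes that lie head to head. Col4a1 and Col4a2, the chains of every basement membrane, had no other protein-coding gene between them and differed alike. Col4a1 read 2.84 and 2.91 in control kidneys against 2.94 and 3.06 in knockout kidneys, a difference of 0.13 ± 0.074 (SE), and Col4a2 read 2.67 and 2.77 against 2.79 and 2.88, a difference of 0.11 ± 0.072 (SE). Both knockout values lay above both control values in each gene, by 1.09-fold and 1.08-fold on average, with adjusted p-values of 0.520 and 0.543 in limma. The upper ends of the 95% intervals, 0.34 and 0.32, include the fibrillar median.

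The other type IV genes had differences below 0. Col4a5, a chain of tubular and glomerular basement membranes, read 0.86 and 0.71 in control kidneys against 0.73 and 0.76 in knockout kidneys, with overlap and a difference of -0.039 ± 0.077 (SE). Its head-to-head neighbour Col4a6, made under the collecting duct epithelium, read -0.24 and -0.19 in control kidneys against -0.43 and -0.32 in knockout kidneys. Col4a6 was lower on both knockout arrays, with a difference of -0.16 ± 0.070 (SE; adjusted p = 0.446 in limma), while its other probe differed by -0.052. Col4a4, which with the chains of Col4a3 and Col4a5 forms the mature glomerular network, read -2.43 and -2.60 in control kidneys against -2.56 and -2.66 in knockout kidneys, a difference of -0.095 ± 0.090 (SE). Its neighbour Col4a3 stayed near background on all 4 arrays and was not tested.

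Of the other classes, 5 genes met the rule for description in full, all of them higher in the knockout kidneys. The rule favours genes whose groups lie apart, so their lack of overlap is no separate result. Collagen genes at least 1.5-fold apart without overlap numbered 4, Col13a1, Col15a1 and Col14a1 besides Col5a3, all higher, where 2.48% of all genes met this higher and 1.05% lower. Col13a1, a transmembrane collagen of cell adhesion sites and the neuromuscular junction, read -4.20 and -4.74 in control kidneys against -3.68 and -3.62 in knockout kidneys, a difference of 0.82 ± 0.20 (SE; adjusted p = 0.324 in limma). Col14a1, a collagen that decorates type I fibrils, read 1.19 and 0.85 against 1.72 and 1.54, a difference of 0.61 ± 0.15 (SE), and its other probe gave 0.46. Col15a1, of the basement membrane zone of muscle and capillaries, read -4.45 and -4.11 against -3.89 and -3.25, a difference of 0.71 ± 0.27 (SE), while its 3 probes ranged from 0.32 to 0.71. With normexp correction Col13a1 differed by 0.35, Col15a1 by 0.30 and Col14a1 by 0.60.

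Col18a1 and Col22a1 showed smaller differences with closer replicates. Col18a1, the source of the angiogenesis inhibitor endostatin and a component of epithelial and vascular basement membranes, read 4.01 and 4.04 in control kidneys against 4.32 and 4.33 in knockout kidneys. The arrays of a group differed by 0.024 and 0.0090, and the groups by 0.29 ± 0.055 (SE; adjusted p = 0.269 in limma), 1.23-fold, with 0.29 for the second probe too. Col22a1, a collagen of the junction between muscle and tendon, read -2.11 and -2.05 in control kidneys against -1.76 and -1.82 in knockout kidneys, a difference of 0.29 ± 0.062 (SE). Beside Col18a1, 7 of 10 endothelial markers were higher on both knockout arrays, where 21.5% of all genes tested were, and Kdr, Pecam1 and Emcn overlapped. Their median was 0.20, with summed signals of 27.8 and 28.4 in control kidneys against 31.0 and 32.0 in knockout kidneys. The part of these cells in the result was not tested.

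Type VI collagen forms beaded filaments around cells, and its genes were picked out here after their values were seen. Col6a1 read 2.94 and 2.37 in control kidneys against 3.229 and 3.004 in knockout kidneys, and its neighbour Col6a2 read 0.84 and 0.14 against 1.12 and 0.90. Both genes were higher on the knockout arrays, by 0.46 ± 0.23 and 0.52 ± 0.27 (SE), but the control arrays lay 0.57 and 0.70 apart, more than the groups did. The same held for Col8a2, a short-chain collagen of sheet-like networks, at 0.74 and 0.033 against 1.04 and 0.86. Col6a6 was above both control values on both knockout arrays, by 0.16 ± 0.092 (SE) on average. This was less than the gap of 0.21 between its control arrays, and its other probe differed by 0.32 with overlap.

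The remaining 9 genes of the other classes ran from 0.39 for Col16a1 to -0.12 for Col9a1. Col16a1, Col9a2, Col7a1 of the anchoring fibrils of skin and Col23a1 were higher on both knockout arrays, and the 3 Col16a1 probes ranged from 0.37 to 0.39. Col25a1, Col20a1, Col26a1 and Col9a3 overlapped, and Col26a1, at 4.65 and 4.54 against 4.57 and 4.55, differed by -0.032 ± 0.069 (SE). Col9a1, a cartilage collagen also made elsewhere, was lower on both knockout arrays, with a difference of -0.12 ± 0.060 (SE), but its other probe differed by 0.097. It was the 1 gene of 12 with several usable probes in which these did not share a direction.

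The 8 collagen genes that were not tested stayed dim. Col10a1, Col17a1, Col19a1, Col28a1 and Col4a3 were above background on no array. Col6a4 and Col6a5 were above background on 1 knockout array each, and Col8a1 on 1 array of each group. The brighter Col6a5 probe read -6.63 and -5.99 in control kidneys against -4.96 and -4.20 in knockout kidneys, of which only the last was above background, and no fold is given.

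Across the collagens, control replicate 2 stood apart. It was the lowest of the 4 arrays for 21 of 34 collagen genes, 61.8%, beside 22.4% of all genes tested, and knockout replicate 1 was the highest for 18, beside 22.0%. These shares partly follow from the group difference. Where both knockout arrays exceed both control arrays, the lowest array is always a control and the highest a knockout array. Control replicate 2 minus replicate 1 had a median of -0.17 over the collagens and 0.014 over all genes tested. Without control replicate 2 the fibrillar median was 0.16 and that of the other classes 0.18. Without control replicate 1 the fibrillar median was 0.42. Which genes lay at least 1.5-fold apart also changed with the array left out. Those counts are not compared here, because a lone array overlaps the other group less easily. Between the control arrays the fibrillar median difference, replicate 2 minus replicate 1, was -0.26, nearly as large as that between the groups, and between the knockout arrays it was -0.15.

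Control replicate 2 was the lowest array for all tested skeletal muscle markers and for most fibrillar collagens. The same held for few liver and gut markers and for no erythroid marker. Of 14 skeletal muscle markers 13 were tested, 13 with differences above 0 (median 1.25) and 10 higher with no overlap, beside 21.5% of all genes tested. Their summed signals were 41.7 and 18.4 in control kidneys against 74.2 and 50.3 in knockout kidneys. Ckm was above background on no array. In all 13, control replicate 2 was the lowest and knockout replicate 1 the highest array. Col1a1, Col3a1, Col5a1 and Col6a1 followed this order. Over the 11 fibrillar genes, control replicate 2 was the lowest for 8 and knockout replicate 1 the highest for 7. In Col2a1, Col11a2, Col18a1 and Col22a1 control replicate 1 was the lowest. Of 6 tendon and fascia markers 4 were tested, 3 with differences above 0 (median 0.60, sums 5.85 and 5.60 against 6.81 and 6.24). Kera, dim at -4.13 and -6.20 in control kidneys, differed by 1.94, Thbs4 by 1.12, Scx by 0.083 and Mkx by -0.31. Control replicate 2 was the lowest array for 2 of these 4. Tnmd and Dpt were above background on no array. Of 7 smooth muscle markers 6 were tested, 5 with differences above 0 (median 0.51, sums 9.36 and 6.43 against 13.8 and 10.6), with Myh11 above background on no array. The 10 markers of kidney stroma went both ways, with a median of 0.013, 5 above and 5 below 0, and sums of 62.7 and 59.1 against 64.6 and 64.1. Among them Fibin (0.75 ± 0.055, SE) and Penk (0.66 ± 0.076) were at least 1.5-fold higher without overlap. Foxd1 (-0.17) and Pdgfra (-0.14) were lower on both knockout arrays. Fibin and Penk passed in limma with the prior that follows the signal (adjusted p = 0.00107 and 0.00524). Of all genes, 0.542% were called higher and 0.654% lower with that prior. Of the liver, mesothelial and smooth muscle markers, Trf, Apoa2, Krt19 and Myocd (higher) and Des (lower) passed there too. So did Osr1 and Six2 (lower) of the kidney markers and Cldn5 (higher) of the endothelial ones. Of 14 liver and gut markers 12 were tested, and all 12 were higher on both knockout arrays, beside 21.5% of all genes tested. Their median was 1.69, with sums of 14.0 and 20.7 against 44.3 and 40.9. Control replicate 2 was the lowest array for only 2 of 12, and Cdx2 and Cdh17 were above background on no array. Of 6 mesothelial markers 2 were tested, 1 above and 1 below 0 (sums 0.603 and 0.584 against 0.921 and 0.845), and Upk1b was above background on no array. Of 10 erythroid markers 8 were tested, 7 with differences above 0 (median 0.23, sums 879 and 1497 against 926 and 1630), 1 without overlap, and control replicate 2 was the lowest array for 0 of 8. The part of these tissues in the collagen differences was not tested.

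**Figure D3:**
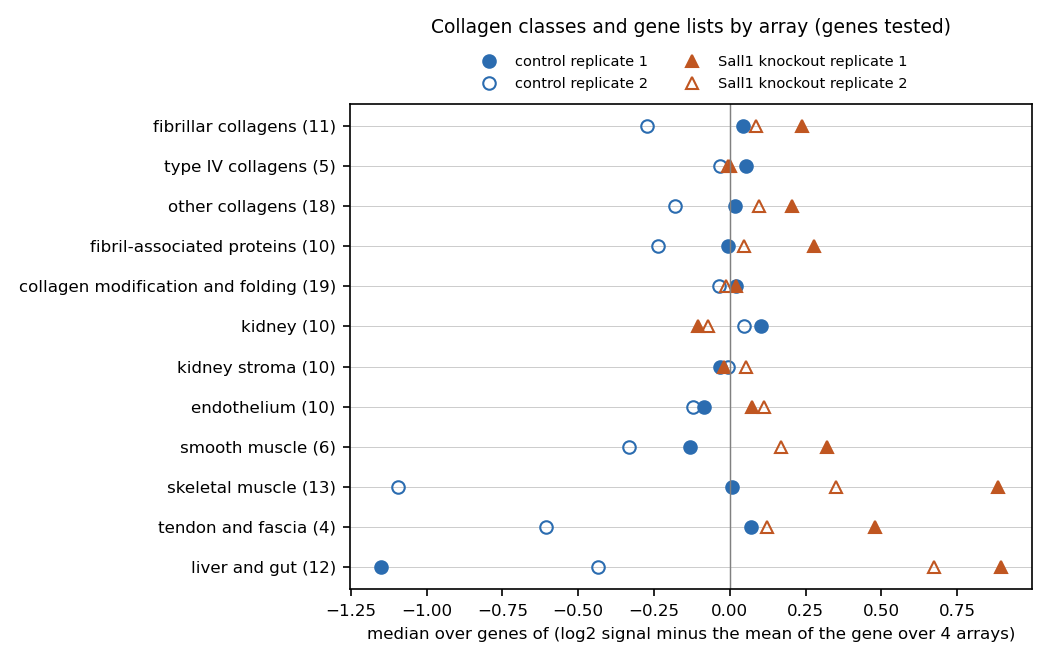
Median over the tested genes of each list of the log2 signal minus the mean of the gene over the 4 arrays, by array (circles, control; triangles, knockout; open symbols, second replicates). Control replicate 2 is lowest for the fibrillar collagens at -0.27, skeletal muscle at -1.09 and tendon at -0.61. The tendon value is a median of 4 genes, of which 2 have control replicate 2 as the lowest array. It is also lowest for the other collagens, fibril-associated proteins, modification genes, endothelium and smooth muscle, but not for kidney, kidney stroma or liver and gut. The type IV collagens stay between -0.032, again in control replicate 2, and 0.054.

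The enzymes that build collagen differed little. Modification and folding covers the prolyl and lysyl hydroxylases, glycosyltransferases and chaperones of the endoplasmic reticulum, and 19 of 20 listed genes were tested with a median of 0.0094. None passed over all genes tested in limma. The unadjusted p was under 0.05 for 1 higher gene and 0 lower ones, beside 6.77% and 5.94% of all genes. The 1 was Colgalt2, a collagen galactosyltransferase, at -4.76 and -4.59 in control kidneys against -3.97 and -4.17 in knockout kidneys (difference 0.60 ± 0.11, SE; adjusted p = 0.255). With normexp correction Colgalt2 differed by 0.20. Fkbp14 and Fkbp10, prolyl isomerases, differed by 0.24 ± 0.097 and 0.12 ± 0.065 (SE), and P4ha3, a subunit of prolyl hydroxylase, by -0.16 ± 0.11.

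Of the extracellular enzymes, Lox stood out. Lox, lysyl oxidase, starts the cross-linking of collagen and elastin and read -3.44 and -3.60 in control kidneys against -2.67 and -2.82 in knockout kidneys. It was 1.71-fold higher, by 0.77 ± 0.096 (SE; adjusted p = 0.191 in limma), and its second probe gave 0.72. With normexp background correction the difference was 0.37. Its relatives did not share this: Loxl1, Loxl3 and Loxl4 differed by 0.068, -0.026 and -0.12 with overlap. The list of 5 had a median of -0.026. Lox alone, higher, had an unadjusted p under 0.05 in limma, beside 6.77% of all genes higher and 5.94% lower. Among 7 tested genes that trim procollagen (median 0.12), Adamts2, which removes the N-terminal propeptide, differed by 0.63 ± 0.20 (SE; adjusted p = 0.367 in limma), but its dimmer probe by -1.31. Pcolce2 differed by -0.17 ± 0.060 (SE), Bmp1, the C-terminal protease, by 0.14 ± 0.068 and its enhancer Pcolce by 0.12 ± 0.080. In that list the unadjusted p was under 0.05 for 1 higher gene, Adamts2, and 1 lower gene, Pcolce2. The shares of all genes were 6.77% and 5.94%.

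Proteins that coat collagen fibrils differed most as a list, with a median of 0.32 over 10 tested genes, 8 of them higher on both knockout arrays and 0 lower, beside 21.5% and 27.7% of all genes tested. None passed over all genes tested in limma. The unadjusted p was under 0.05 for 3 genes, all higher, beside 6.77% of all genes higher and 5.94% lower. Lum, the proteoglycan lumican, read 1.92 and 1.42 in control kidneys against 2.68 and 2.30 in knockout kidneys, a difference of 0.82 ± 0.23 (SE; adjusted p = 0.350). Tnxb, a tenascin, Fbln1, a fibulin, and Bgn, the proteoglycan biglycan, differed by 0.38 ± 0.10, 0.26 ± 0.079 and 0.26 ± 0.12 (SE). Thbs2, Postn and Dcn, named after their values were seen, were 1.62-fold, 1.58-fold and 1.51-fold higher on average. Dcn overlapped between the groups, and the control arrays of Dcn and Postn lay 1.07 and 0.75 apart, more than the groups did. Control replicate 2 was the lowest array for 9 of the 10 and knockout replicate 1 the highest for all 10, as in skeletal muscle.

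Receptors and proteases of collagen differed little. Of the receptors 9 of 10 were tested with a median of 0.062, and 0 passed over all genes tested in limma. The unadjusted p was under 0.05 for 1 gene, which was higher, beside 6.77% of all genes higher and 5.94% lower. That 1 was Itga11, an integrin subunit of fibroblasts, at -1.41 and -1.42 in control kidneys against -1.003 and -1.230 in knockout kidneys (difference 0.30 ± 0.099, SE; adjusted p = 0.380). The receptor kinases Ddr1 and Ddr2 differed by 0.17 ± 0.081 and 0.26 ± 0.16 (SE), Ddr2 with overlap, and the platelet receptor Gp6 by 0.43 ± 0.19, or 0.17 with normexp correction. Of the collagenases, gelatinases and their inhibitors 5 of 8 were tested, with a median of 0.067 and none at an unadjusted p under 0.05. Mmp14, a membrane-bound collagenase, differed by -0.20 ± 0.14 (SE), Mmp2 by 0.067 ± 0.095, and the inhibitors Timp1 and Timp3 by 0.092 ± 0.056 and 0.039 ± 0.058.

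**Figure D4:**
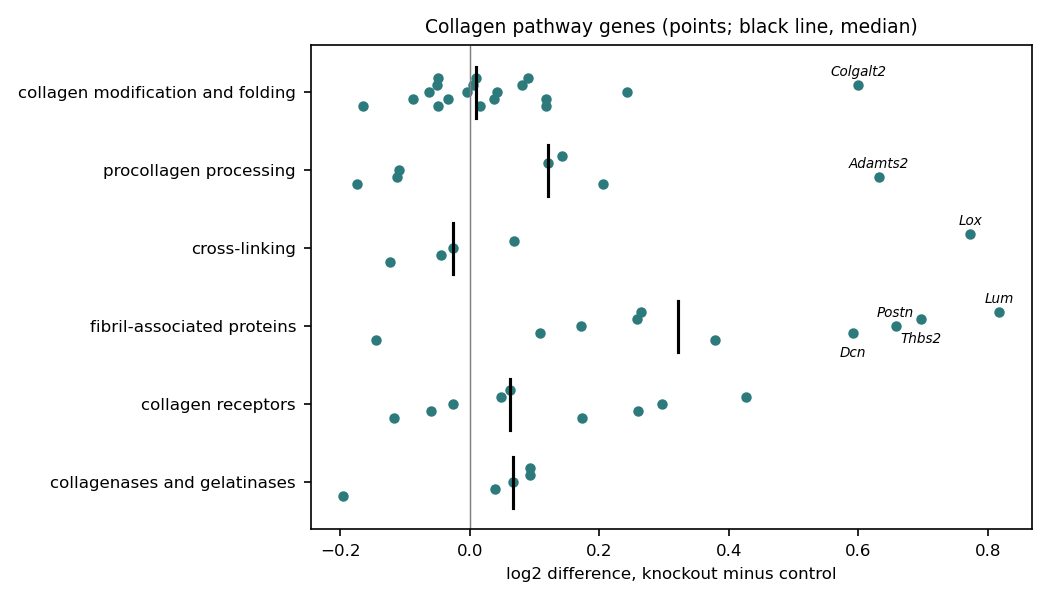
Log2 difference, knockout minus control, of the tested genes of 6 collagen pathway lists (points, spread vertically for display) with the median of each list (black lines). The genes at least 1.5-fold higher are labelled: Colgalt2, Adamts2, Lox, Lum, Thbs2, Postn and Dcn.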

How the data were processed

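Per the file headers, the authors deposited scanner output of Feature Extraction 10.7.3.1 (array design 028005, mm9), which gives a processed spot intensity that the software had corrected within the array. The value table repeats it, since 100% of 55249 single-spot rows lay within 1% on each array. Its column medians were 52.29 and 47.07 for control, 47.76 and 45.79 for knockout. Intensities were divided by the 75th percentile of spots that were neither controls nor outlier-marked (597 and 547.5 control, 534 and 521 knockout), set to log2 and averaged per probe. Kept were 34255 probes that both arrays of at least 1 group showed well above background, and each gene was represented by its brightest probe. RefSeq accessions matched a GRCm38.p6 table for 26413 probes. The comparison used limma (version 3.58.1, R 4.3.3), two-sided, and p-values were adjusted by Benjamini-Hochberg over everything tested. The fit was tested on simulated data. Replicates were numbered in sample order.

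Named were all tested fibrillar and type IV genes, other collagens with an unadjusted p under 0.05 or at least 1.5-fold apart without overlap, up to 4 genes per pathway list by smallest p, and Sall1. Members and lists were chosen with earlier results of these data known.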

Additional observations from a re-analysis of the deposited data

How the results depend on the processing

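Normexp background correction with its offset of 50 left 1 collagen gene at least 1.5-fold apart in place of 4. Averaging probes left 2 and a 2-fold limit 0. The trended and robust prior called 2 collagen genes in place of 0. These were Col2a1 and Col18a1, with adjusted p-values of 0.0139 and 0.0345 in limma. Their log2 differences of 0.43 and 0.29 did not change. The type IV median turned from -0.039 to 0.0042 with normexp correction and to 0.037 with no background filter. With each array left out in turn it ran from -0.11 to 0.035, the fibrillar median from 0.16 to 0.42 and that of other classes from 0.18 to 0.39. The count of genes at least 1.5-fold apart then ran from 1 to 7, and 0 were called throughout. Single genes turned with normexp correction for Col4a4 (0.0042) and Loxl4 (0.0011), and with the mean over probes for Adamts2 (-0.34). With an array left out, Col24a1 ran from -0.16 to 0.079, Col4a5 from -0.11 to 0.035, Loxl4 from -0.45 to 0.20, Col11a1 from -0.034 to 0.15, Col27a1 from -0.053 to 0.24, Loxl1 from -0.084 to 0.22 and Mmp2 from -0.019 to 0.15. Quantile normalization, median centring, marked spots kept, array weights, the deposited value table, only probes above background on all 4 arrays and an adjusted p under 0.1 changed no count of collagens called or apart by over 1.5 times and no direction of a class median. Choosing members by a gene name column was not run, since the files hold no such column. No paired analysis was possible because the labels give no replicate numbers shared by the groups. A lone array left in a group was assumed to vary like the other group. At 2 arrays per group, limma with its default prior called 0 of 25073 genes and sequences at an adjusted p of 0.05. Sall1 was not called there either. With the trended and robust prior Sall1 was called (adjusted p = 0.00143 in limma), beside 0.542% of all genes higher and 0.654% lower. With the default prior, large differences in bright genes could therefore be missed as well as small ones in dim genes.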
